A study of Mus musculus with 12 samples.

Results

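The basement membrane genes considered here encode 7 laminin chains (Lama1, Lama3, Lama4, Lama5, Lamb2, Lamb3 and Lamc1), nidogen-1 (Nid1) and perlecan (Hspg2). They were found by symbol in the authors' annotation of 28427 gene rows, and all 9 had a row and passed the filter on low counts that left 13951 genes. The row for Lamb3 also carried the name AK005414. The libraries came from mammary epithelial cells of C57BL/6 mice, grown for 96 h or 48 h as spheroids inside growth factor-reduced Matrigel or as monolayers on collagen-coated dishes. The 4 groups were therefore 96 h spheroids, 96 h monolayers, 48 h spheroids and 48 h monolayers, with 3 libraries each, described as biological replicates. Neither the age of the mice nor whether replicates came from different animals is stated in the sources used here, and p-values measure the spread between these libraries. All cells received progesterone and prolactin and had been trypsinized before plating, and the medium of the gels was changed after 48 h. Culture shape and matrix changed together, so a spheroid effect and a Matrigel effect cannot be told apart. Matrigel is itself an extract of mouse tumour basement membrane, made mainly of laminin, collagen IV, nidogen and perlecan protein, whereas the libraries measured the mRNA of the cultures.

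A basement membrane is the thin sheet on which epithelial cells rest. Laminins are its founding polymer: each is a cross-shaped trimer of an alpha, a beta and a gamma chain, of which the alpha chain carries the main binding sites for cell-surface integrins and dystroglycan. Nidogen links the laminin sheet to the collagen IV sheet, and perlecan, a proteoglycan with heparan sulfate chains, binds these proteins and stores growth factors. In the mammary gland the basement membrane surrounds the ducts and alveoli, is made by myoepithelial and stromal cells as well as luminal cells, and is needed together with prolactin for milk protein expression in culture.

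Library totals ran from 7674105 to 13554497 counts. The epithelial markers Krt8, Krt18 and Epcam were high in every group: they averaged 1919, 1117 and 1171 CPM (counts scaled to a fixed library size, after TMM normalization) in 96 h spheroids, 1431, 1028 and 908 CPM in 96 h monolayers, 2145, 937 and 849 CPM in 48 h spheroids and 4246, 2716 and 1362 CPM in 48 h monolayers. The 20 luminal markers summed to 8574 to 8871 CPM in 96 h spheroids and 5459.7 to 5883 CPM in 96 h monolayers. At 48 h the sums were 8639 to 9027 CPM in spheroids and 11891 to 13669 CPM in monolayers. At 96 h 17 were called higher and 1 lower in spheroids (85% and 5%, against 37.3% and 36.5% of all genes). At 48 h 11 were higher and 7 lower (55% and 35%, against 31.6% and 26.4%). The 15 fibroblast markers, none of them at 0, summed to 948 to 992 CPM in 96 h spheroids, 2409 to 3517 CPM in 96 h monolayers, 2794 to 3015 CPM in 48 h spheroids and 10591 to 11390.0 CPM in 48 h monolayers. The 18 basal and myoepithelial markers summed to 1365 to 1399 CPM in 96 h spheroids, 719.5 to 895 CPM in 96 h monolayers, 1705 to 1822 CPM in 48 h spheroids and 3284 to 3709 CPM in 48 h monolayers. The 14 endothelial markers reached at most 109 CPM in any library. The 12 immune markers summed to 486 to 570.2 CPM in 96 h spheroids, 106 to 119 CPM in 96 h monolayers, 291 to 324 CPM in 48 h spheroids and 78.8 to 96.7 CPM in 48 h monolayers. Most of that sum was Cd14, which averaged 497 CPM in 96 h spheroids, 64.1 in 96 h monolayers, 274 in 48 h spheroids and 56.7 in 48 h monolayers, while the mean of the defining leukocyte marker Ptprc was at most 0.281 CPM in any group. The 10 adipocyte markers summed to 136 to 146 CPM in 96 h spheroids, 143 to 146 CPM in 96 h monolayers, 578 to 619 CPM in 48 h spheroids and 148 to 167 CPM in 48 h monolayers. Fabp4 and Lpl made up most of the 48 h spheroid sum (284 and 279.9 CPM). All 5 adipocyte markers tested were called higher in spheroids at 48 h, against 31.6% of all genes. Lep and Cfd were at 0 in every group but the 96 h spheroids, where each had a total of 1 count. In bulk libraries such as these, fewer cells of a type and less RNA per cell cannot be told apart.

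The 48 h monolayer libraries stood apart by gene length, which bears on genes as long as these. The implied transcript lengths ran from 4.11 kb for Lamb3 to 10.6 kb for Hspg2, at or above the 76th percentile of the genes tested. In replicate 3 of the 48 h monolayers all 9 genes lay below their group mean, with a median deviation of -0.23 on the log2 CPM scale, where the top length quartile of all genes had -0.12 and the bottom quartile 0.13. Replicate 1 of that group went the other way: none of the 9 lay below the mean, their median deviation was 0.20, and the top length quartile had 0.11 and the bottom quartile -0.12. Across genes, deviation and length correlated with Spearman rho of -0.51 in replicate 3 and 0.50 in replicate 1, and between -0.21 and 0.17 in the other 10 libraries. For the 9 genes, changes that use the 48 h monolayers are therefore also given without each of these libraries.

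**Figure D1:**
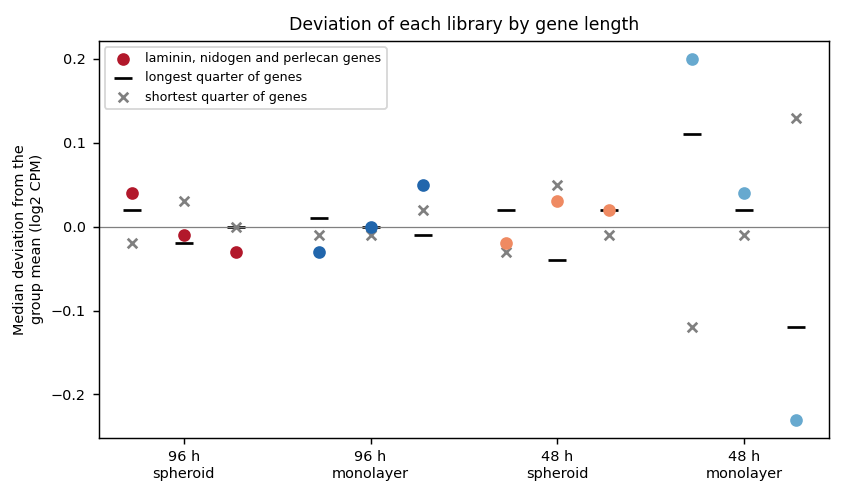
Median deviation from the group mean (log2 CPM, y axis) in each of the 12 libraries, replicates 1 to 3 from left to right in each group. Circles are the 9 laminin, nidogen and perlecan genes, bars the top and crosses the bottom length quartile of the genes tested; replicates 1 and 3 of the 48 h monolayers lie apart, at 0.20 and -0.23 for the 9 genes.

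At 96 h, Lama5 and Lamb3 were higher in spheroids than in monolayers, and Lama1, Lama3, Lama4, Lamc1, Nid1 and Hspg2 were lower. Lamb2 did not pass the test, the edgeR quasi-likelihood test with Benjamini-Hochberg adjustment over all genes at a threshold of 0.05. Of all genes tested, 73.8% were called at 96 h, 37.3% higher and 36.5% lower in spheroids, so a call as such sets no gene apart. The median log2 fold change was -0.45 over the 9 genes and -0.00 over all genes. It was -0.22 over the top length quartile of genes and 0.27 over the bottom one, and the part of gene length in the 9 changes was not tested.

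At 48 h, Lama5 and Nid1 were higher in spheroids, and Lama1, Lama3, Lama4, Lamb2, Lamc1 and Hspg2 were lower, while Lamb3 did not pass. Of all genes, 57.9% were called, 31.6% higher and 26.4% lower. The share of called genes that were higher was 54.5%, and 65.1% with libraries scaled by their totals without TMM. The median log2 fold change over all genes was 0.05, and 0.16 with that scaling. The median log2 fold change over the 9 genes was -0.56, and in 8 of them the spheroid and monolayer libraries did not overlap, as in 60.0% of all genes. It follows that Lama5 was higher, and Lama1, Lama3, Lama4, Lamc1 and Hspg2 lower, in spheroids at both times, also under total-count scaling, and that Nid1 was called in opposite directions at the 2 times.

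Most of these genes fell with time in culture, in either format. In spheroids 7 of the 9 were lower at 96 h than at 48 h, and Lamb2 and Lamb3 did not pass, where 39.8% of all genes were called, 19.3% higher and 20.5% lower. In monolayers all 9 were lower at 96 h, where 61.3% of all genes were called, 30.1% higher and 31.3% lower. Under total-count scaling 8 of the 9 were still called lower in monolayers, Nid1 being the exception with a log2 fold change of -0.14 and an adjusted p of 0.174. The share of called genes that were higher in monolayers at 96 h was 49.0%, against 66.2% under total-count scaling, with the median over all genes at 0.01 and 0.18. The median log2 fold change of the 9 genes was -1.0 in spheroids and -0.67 in monolayers, against 0.01 over all genes in each. In monolayers the median was 0.16 over the top length quartile of genes and -0.18 over the bottom one. The libraries of the 2 times did not overlap for 8 of the 9 genes in spheroids and for 9 in monolayers, as for 53.8% and 63.8% of all genes. The 5 comparisons share libraries, so their values are set side by side and not correlated.

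Promoter sequences are given for 4 genes that differed in how they responded: Lama5 (higher in spheroids at both times), Hspg2 (lower at both), Nid1 (higher at 48 h and lower at 96 h) and Lamb3 (higher at 96 h). The RefSeq promoter table for build GRCm38.p6 held 5 of the 9 genes, and the counts use another build, mm9. Each run is the 250 bases before the annotated start, read 5′ to 3′ on the gene's strand, with motif matches in capitals. The windows are chr2:180225860-180226109 on the minus strand for Lama5, and on the plus strand chr4:137468553-137468802 for Hspg2, chr13:13437352-13437601 for Nid1 and chr1:193301744-193301993 for Lamb3.
Lama5: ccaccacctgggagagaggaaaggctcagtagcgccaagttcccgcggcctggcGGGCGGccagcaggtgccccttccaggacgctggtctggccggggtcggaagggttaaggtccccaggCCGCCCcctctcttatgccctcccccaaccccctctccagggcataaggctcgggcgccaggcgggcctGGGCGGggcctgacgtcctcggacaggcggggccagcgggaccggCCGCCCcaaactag
Hspg2: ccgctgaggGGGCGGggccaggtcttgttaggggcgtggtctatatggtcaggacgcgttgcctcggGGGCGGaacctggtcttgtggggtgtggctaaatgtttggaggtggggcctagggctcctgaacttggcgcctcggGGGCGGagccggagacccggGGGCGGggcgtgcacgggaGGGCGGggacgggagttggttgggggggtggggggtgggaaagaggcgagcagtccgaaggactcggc
Nid1: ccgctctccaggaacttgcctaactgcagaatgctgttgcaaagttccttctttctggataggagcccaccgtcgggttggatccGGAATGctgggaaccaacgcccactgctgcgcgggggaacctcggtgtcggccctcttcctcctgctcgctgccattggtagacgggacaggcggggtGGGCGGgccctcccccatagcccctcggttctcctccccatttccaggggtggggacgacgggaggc
Lamb3: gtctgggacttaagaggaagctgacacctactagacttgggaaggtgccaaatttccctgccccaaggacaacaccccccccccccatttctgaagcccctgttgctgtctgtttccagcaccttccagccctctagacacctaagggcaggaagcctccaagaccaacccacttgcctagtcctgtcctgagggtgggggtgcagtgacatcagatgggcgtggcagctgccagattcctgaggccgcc

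The motifs searched on both strands were the GC box GGGCGG (bound by Sp-type factors), TEAD GGAATG, AP-1 TGANTCA, STAT5 TTCNNNGAA and the TATA box TATAAA, and no matches overlapped. They occur in 32.7%, 12.6%, 6.75%, 7.02% and 12.4% of 32851 windows of the same length. Lama5 held 4 GC boxes, whose first bases lie at -196, -128, -59 and -14 counted back from the start, and Hspg2 held 5, at -241, -183, -107, -87 and -68. Nid1 held a TEAD match at -165 and a GC box at -67, and the window shown for Lamb3 held none of the 5 motifs. The table gives Lamb3 another start, whose window held a TEAD match at -167, and Lamb2, not printed, held a STAT5 match at -208. The GC content was 72.4% for Lama5, 70.0% for Hspg2, 64.4% for Nid1 and 58.8% for Lamb3, against a median of 52.4% over all windows. Lama5 and Hspg2, which moved in opposite directions between formats, thus shared a GC-rich window with several GC boxes, and a match describes letters in a window and not a bound site.

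Among the alpha chains, Lama5 encodes the alpha-5 chain of the laminins that are the most widespread in adult epithelial basement membranes. It had 305, 282 and 267 CPM in 96 h spheroids, against 152, 139 and 158 CPM in 96 h monolayers. At 48 h the levels were 371, 390.1 and 364 CPM in spheroids, against 296, 241 and 181 CPM in monolayers. Every spheroid library lay above every monolayer library of the same time, and the 48 h monolayers were the most scattered group. The log2 fold change of spheroids over monolayers was 0.92 ± 0.119 at 96 h (SE, adjusted p = 1.42e-06, 1.90-fold) and 0.65 ± 0.118 at 48 h (adjusted p = 0.000117, 1.57-fold). Without replicate 1 of the 48 h monolayers the 48 h value was 0.83, and without replicate 3 it was 0.48, both called. Lama5 fell with time, by 0.40 ± 0.117 on the log2 scale in spheroids (adjusted p = 0.0112) and by 0.67 ± 0.12 in monolayers (adjusted p = 0.000103). Without replicate 3 of the 96 h spheroids the fall in spheroids was not called, at -0.35 with an adjusted p of 0.0578.

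Lama3 encodes the alpha-3 chain of the laminin that anchors basal epithelial cells through integrin alpha-6 beta-4 and hemidesmosomes. It was measured at 29.2, 27.2 and 25.8 CPM in 96 h spheroids, against 100.1, 99.4 and 95.9 CPM in 96 h monolayers. At 48 h it had 71.1, 64.1 and 68.6 CPM in spheroids, against 157, 157 and 123 CPM in monolayers. The 4 groups did not overlap and ran, from high to low, 48 h monolayers, 96 h monolayers, 48 h spheroids and 96 h spheroids. The log2 fold change of spheroids over monolayers was -1.84 ± 0.0905 at 96 h (adjusted p = 1.86e-12, 3.59-fold lower) and -1.10 ± 0.0841 at 48 h (adjusted p = 2.06e-09, 2.14-fold lower). The time changes were -1.31 ± 0.0926 in spheroids (adjusted p = 1.97e-09) and -0.57 ± 0.0814 in monolayers (adjusted p = 1.02e-05). Lama3 and Lama5, both alpha chains of epithelial laminins, thus differed between formats in opposite directions at each time.

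Lama4 encodes the alpha-4 chain, known from the basement membranes of vessels, fat and muscle. Its levels were 74.4, 73.4 and 76.1 CPM in 96 h spheroids, against 112, 95.1 and 97.7 CPM in 96 h monolayers. At 48 h they were 105, 97.8 and 97.5 CPM in spheroids, against 196, 185 and 142 CPM in monolayers. Spheroids lay below monolayers of the same time without overlap, whereas the 96 h monolayers and 48 h spheroids overlapped. The log2 fold changes of spheroids over monolayers were -0.45 ± 0.0963 at 96 h (adjusted p = 0.000393) and -0.80 ± 0.0945 at 48 h (adjusted p = 7.44e-07). With time Lama4 changed by -0.42 ± 0.0969 in spheroids (adjusted p = 0.00193) and by -0.78 ± 0.0939 in monolayers (adjusted p = 1.27e-06). The summed fibroblast markers given above were also highest in 48 h monolayers and lowest in 96 h spheroids, mostly through Col1a1, Col1a2 and Postn (4026, 3061 and 2625 CPM in 48 h monolayers). Of the 15 markers 8 had their highest mean in 48 h monolayers and 9 their lowest in 96 h spheroids. At 48 h 6 were called higher and 8 lower in spheroids (40% and 53.3%, against 31.6% and 26.4% of all genes). Col6a3, for example, averaged 410.1 CPM in 48 h spheroids against 100.3 CPM in 48 h monolayers. The endothelial marker sum was also lowest in 96 h spheroids (45.2 to 50.2 CPM). In 48 h monolayers (69.7 to 87.8 CPM) it lay below that of 96 h monolayers (98.9 to 108 CPM), unlike Lama4. The adipocyte marker sum was highest in 48 h spheroids (578 to 619 CPM, against 148 to 167 CPM in 48 h monolayers). The part of any of these markers in the Lama4 result was not tested.

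Lama1 encodes the alpha-1 chain, which is known from the early embryo and from the laminin of Matrigel. It was the lowest of the 9 genes in every group per length, with a mean of 0.133, 0.747, 0.277 and 1.45 FPKM (fragments scaled to gene length and library size) in 96 h spheroids, 96 h monolayers, 48 h spheroids and 48 h monolayers. Its row held 14, 18 and 17 counts in 96 h spheroids, against 83, 64 and 67 counts in 96 h monolayers, which makes 1.07, 1.48 and 1.26 CPM in 96 h spheroids and 6.63, 8.01 and 5.90 CPM in 96 h monolayers. At 48 h there were 27, 28 and 19 counts in spheroids, against 198, 159 and 136 counts in monolayers. The groups did not overlap. Despite the low counts Lama1 had the widest format difference of the 9, -2.41 ± 0.252 at 96 h (log2, adjusted p = 8.87e-08, 5.31-fold) and -2.49 ± 0.215 at 48 h (adjusted p = 1.06e-08, 5.63-fold). At 96 h relative to 48 h it fell by 1.05 ± 0.302 in spheroids (adjusted p = 0.0102) and by 1.13 ± 0.181 in monolayers (adjusted p = 3.39e-05). The spheroid change was not called without replicate 2 of the 48 h spheroids, at -0.88 with an adjusted p of 0.0603.

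**Figure D2:**
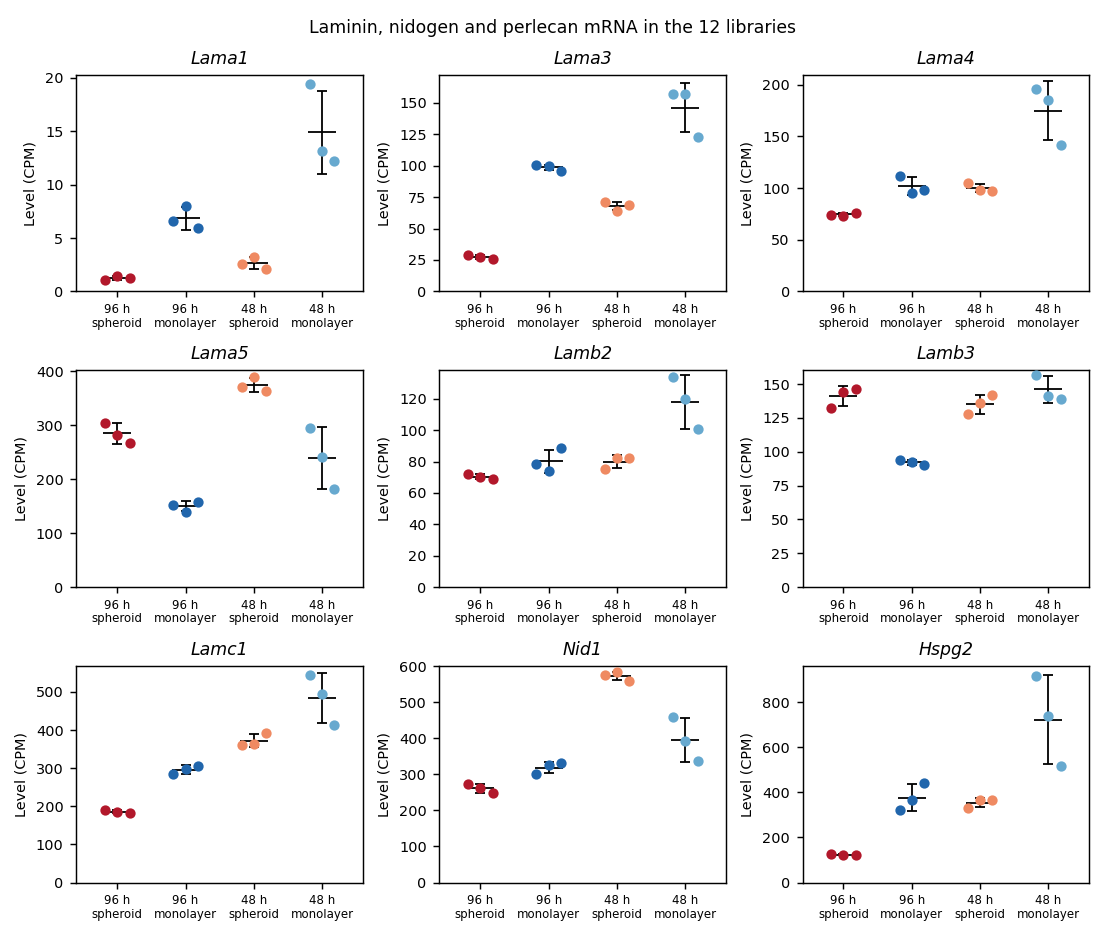
Level of each gene (CPM, y axis, from 0) in the 12 libraries by group, with the mean and SD of 3 libraries as a horizontal and a vertical line. Lama5 is higher in spheroids than in monolayers of the same time, Lama1, Lama3, Lama4, Lamc1 and Hspg2 are lower, and the 48 h monolayers scatter most.

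The beta chains behaved unlike each other. Lamb3 encodes the beta-3 chain, which occurs in laminin together with the Lama3 chain. It had 132, 144 and 146 CPM in 96 h spheroids, against 93.7, 92.5 and 90.4 CPM in 96 h monolayers. At 48 h it had 128, 136 and 142 CPM in spheroids, against 157, 141 and 139 CPM in monolayers. The 96 h monolayers stood below all the other libraries, and the other 3 groups overlapped. The basal and myoepithelial markers did not share 1 order: their sum was lowest in 96 h monolayers through Krt14 (907 CPM in 96 h spheroids against 73.5 in 96 h monolayers) and Krt5 (131 against 10.0). Yet 11 of the 18 were called lower and 6 higher in spheroids at 96 h, with a median log2 fold change of -1.38. These are 61.1% lower and 33.3% higher, against 36.5% and 37.3% of all genes. The part of these markers in the Lamb3 result was not tested. The spheroid over monolayer log2 fold change was 0.61 ± 0.0677 at 96 h (adjusted p = 2.01e-07, 1.52-fold). At 48 h it was -0.11 ± 0.0669, with a 95% interval of -0.24 to 0.02 and an adjusted p of 0.183. Over time Lamb3 fell by 0.66 ± 0.0679 in monolayers (adjusted p = 1.69e-07), and its value in spheroids was 0.06 ± 0.0667 (95% interval -0.08 to 0.19, adjusted p = 0.543).

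Lamb2 encodes the beta-2 chain, known from neuromuscular junctions and the kidney glomerulus. Its levels were 72.0, 70.0 and 69.1 CPM in 96 h spheroids, against 78.5, 73.7 and 88.4 CPM in 96 h monolayers. At 48 h they were 75.0, 82.5 and 82.3 CPM in spheroids, against 134, 119.6 and 101 CPM in monolayers. Only the 48 h monolayers stood well above the rest. The 48 h log2 fold change was -0.56 ± 0.0903 (adjusted p = 3.07e-05). At 96 h it was -0.19 ± 0.0911 (95% interval -0.37 to -0.01, adjusted p = 0.064), and the 3 libraries of each group did not overlap, as for 78.9% of all genes. That value was called under 11 of 22 alternatives, DESeq2 among them at -0.22 with an adjusted p of 0.0498. In monolayers Lamb2 fell with time by 0.55 ± 0.0896 (adjusted p = 3.67e-05), and the value in spheroids was -0.18 ± 0.0918 (adjusted p = 0.124).

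Lamc1 encodes the gamma-1 chain shared by most laminins and bound by nidogen. It had 191, 186 and 182 CPM in 96 h spheroids, against 284, 298 and 306 CPM in 96 h monolayers. At 48 h it had 362, 363 and 393 CPM in spheroids, against 545, 495 and 413 CPM in monolayers. No groups overlapped, and both 48 h groups lay above both 96 h groups. The log2 fold change of spheroids over monolayers was -0.67 ± 0.0829 at 96 h (adjusted p = 8.53e-07) and -0.38 ± 0.0817 at 48 h (adjusted p = 0.000624). The 48 h value was -0.29 without replicate 1 of the 48 h monolayers and -0.48 without replicate 3. The log2 fold changes of 96 h over 48 h were -1.0 ± 0.0831 in spheroids (adjusted p = 1.9e-08) and -0.71 ± 0.0821 in monolayers (adjusted p = 7.24e-07).

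Nid1 encodes nidogen-1, which bridges the laminin gamma-1 chain and collagen IV. It was measured at 273, 261 and 248 CPM in 96 h spheroids, against 301, 326 and 330.4 CPM in 96 h monolayers. At 48 h it had 576, 583 and 560.2 CPM in spheroids, against 459, 393 and 337 CPM in monolayers. The summed adipocyte markers were also highest in 48 h spheroids, and their part in this result was not tested. The 48 h spheroids were above every other library and the 96 h spheroids below, so the groups of one format enclosed those of the other. Spheroids over monolayers gave a log2 fold change of -0.29 ± 0.0873 at 96 h (adjusted p = 0.00558, 1.23-fold) and 0.53 ± 0.0867 at 48 h (adjusted p = 3.66e-05, 1.45-fold). Between the times Nid1 fell by 1.14 ± 0.0877 in spheroids (adjusted p = 6.57e-09, 2.20-fold) and by 0.31 ± 0.087 in monolayers (adjusted p = 0.00497). The monolayer value was -0.20 without replicate 1 of the 48 h monolayers (adjusted p = 0.0264) and -0.42 without replicate 3 (adjusted p = 4.89e-05).

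Hspg2 encodes perlecan. Its levels were 127, 124 and 121 CPM in 96 h spheroids, against 323, 365 and 442 CPM in 96 h monolayers. At 48 h they were 331, 364 and 365 CPM in spheroids, against 914, 739.6 and 516 CPM in monolayers. The 96 h spheroids lay under all the other libraries and the 48 h monolayers above them, and the 96 h monolayers and 48 h spheroids overlapped. The log2 fold change of spheroids over monolayers was -1.60 ± 0.148 at 96 h (adjusted p = 1.58e-08, 3.04-fold) and -1.03 ± 0.143 at 48 h (adjusted p = 5.91e-06, 2.05-fold). Without replicate 1 of the 48 h monolayers the 48 h value was -0.83, and without replicate 3 it was -1.23. Over time Hspg2 changed by -1.51 ± 0.148 in spheroids (adjusted p = 1.61e-07) and by -0.94 ± 0.143 in monolayers (adjusted p = 1.82e-05). Like Lama4, Hspg2 was highest and lowest in the groups with the highest and lowest fibroblast marker sums, although single markers of that list split as given for Lama4, and their part was not tested. Lama1, Lama3 and Lamb2 had the same order of group means as Lama4 and Hspg2. Lamc1 was also highest in 48 h monolayers and lowest in 96 h spheroids. The luminal and basal marker sums were highest in 48 h monolayers too, but lowest in 96 h monolayers. Single markers of these lists split as well. Of the 18 basal and myoepithelial markers 9 had their highest mean in 48 h monolayers. Their lowest mean was in 96 h spheroids for 11 and in 96 h monolayers for 4. Of the 20 luminal markers 10 were highest in 96 h spheroids and 5 in 48 h monolayers, and 11 were lowest in 96 h monolayers. The part of these markers was not tested. The implied transcript length of Hspg2 varied between libraries from 8.07 to 11.5 kb and that of Lama5 from 7.92 to 10.8 kb, so their FPKM and CPM need not move in the same proportion.

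Leaving out replicate 1 or replicate 3 of the 48 h monolayers left the 8 calls at 48 h and the 9 calls in monolayers over time in place, with their directions. The 48 h log2 fold changes without replicate 1 and without replicate 3 were -2.27 and -2.62 for Lama1, -1.05 and -1.21 for Lama3, -0.72 and -0.93 for Lama4, -0.47 and -0.67 for Lamb2, and 0.65 and 0.42 for Nid1. The uncalled 48 h value of Lamb3 was -0.05 and -0.14. In monolayers over time the 2 fits gave -0.91 and -1.26 for Lama1, -0.52 and -0.67 for Lama3, -0.69 and -0.90 for Lama4, -0.49 and -0.84 for Lama5, -0.46 and -0.66 for Lamb2, -0.61 and -0.69 for Lamb3, -0.62 and -0.81 for Lamc1, and -0.74 and -1.13 for Hspg2.

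**Figure D3:**
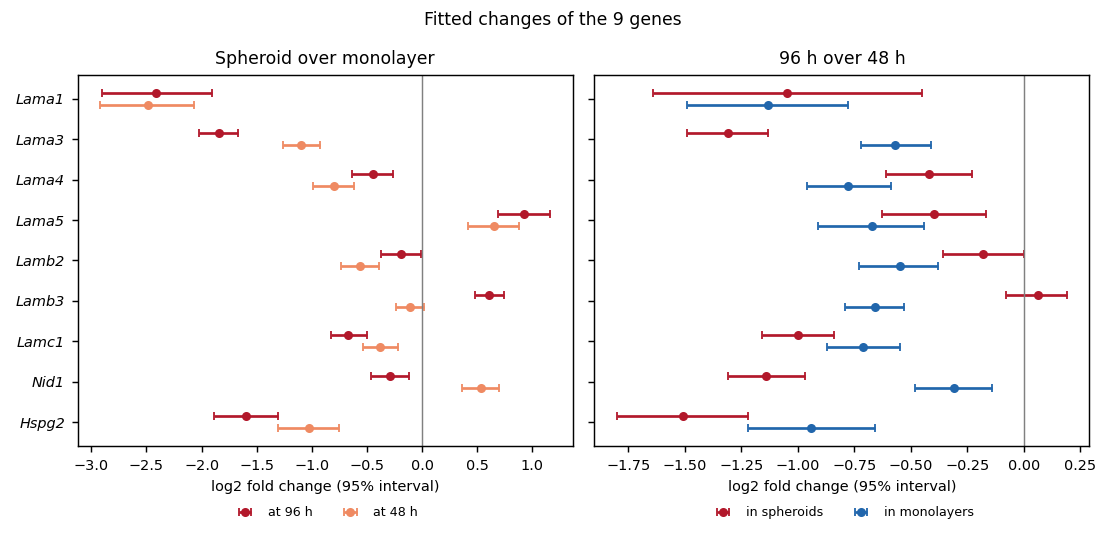
Fitted log2 fold changes of the 9 genes with 95% intervals, spheroid over monolayer on the left (at 96 h and at 48 h) and 96 h over 48 h on the right (in spheroids and in monolayers). Lama5 lies right of 0 and Lama1, Lama3, Lama4, Lamc1 and Hspg2 left of it at both times, Nid1 changes side, and the time changes lie at or left of 0 except that of Lamb3 in spheroids, at 0.06.

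The difference between the spheroid effect at 96 h and that at 48 h, the format by time interaction, was called for 7 of the 9 genes, where 53.3% of all genes were called, 26.9% with a positive and 26.4% with a negative value. It was negative for Nid1 (-0.83 ± 0.123, adjusted p = 1.93e-05), Lama3 (-0.75 ± 0.123, adjusted p = 5.89e-05), Hspg2 (-0.57 ± 0.203, adjusted p = 0.0247) and Lamc1 (-0.29 ± 0.116, adjusted p = 0.044). It was positive for Lamb3 (0.71 ± 0.0951, adjusted p = 5.38e-06), Lamb2 (0.37 ± 0.128, adjusted p = 0.0209) and Lama4 (0.35 ± 0.135, adjusted p = 0.0345). Lama5 and Lama1 did not pass, at 0.27 ± 0.167 (adjusted p = 0.177) and 0.09 ± 0.382 (adjusted p = 0.867). The calls of Lama3, Lamb3 and Nid1 were made under all 21 alternatives. That of Lamc1 was lost under 13, that of Lama4 under 11, that of Lamb2 under 6 and that of Hspg2 under 5. Leaving out a single library ended the call of Lamc1 for 10 of the 12, all but replicate 1 of either monolayer group (-0.31 to -0.19, adjusted p 0.0575 to 0.129). It ended that of Lama4 for 7, replicate 3 of the 96 h spheroids, replicates 2 and 3 of the 96 h monolayers and of the 48 h spheroids, and replicates 1 and 2 of the 48 h monolayers (0.27 to 0.35, adjusted p 0.0618 to 0.0871). It ended that of Hspg2 for 4, replicate 3 of the 96 h spheroids and of the 96 h monolayers and replicates 2 and 3 of the 48 h spheroids (-0.54 to -0.43, adjusted p 0.0545 to 0.0827). The call of Lamb2 ended without replicate 2 of the 96 h monolayers or replicate 1 of the 48 h spheroids (0.32 and 0.33, adjusted p = 0.0612 and 0.054). Under total-count scaling Lama4 had 0.17 (adjusted p = 0.342) and Lamb2 0.19 (adjusted p = 0.256). In all, 5 or 6 genes were called under the other scalings, DESeq2 and the FPKM fits, and 4 without some single libraries. Without replicate 3 of the 48 h monolayers the value of Hspg2 was -0.38 (adjusted p = 0.0264), that of Lamc1 -0.19 (adjusted p = 0.0785) and that of Lama5 0.44 (adjusted p = 0.0022). Without replicate 1 these values moved the other way, to -0.76 (adjusted p = 0.000898), -0.37 (adjusted p = 0.00478) and 0.10 (adjusted p = 0.516). The values without replicate 1 and without replicate 3 were -0.93 and -0.72 for Nid1, -0.79 and -0.64 for Lama3, and 0.67 and 0.75 for Lamb3. They were 0.27 and 0.48 for Lama4, 0.28 and 0.47 for Lamb2, and -0.13 and 0.21 for Lama1. Of the called genes 50.5% were positive over all genes, against 34.2% under total-count scaling, where the median over all genes was -0.21 in place of -0.02. With TMM the median interaction value was -0.18 over the top length quartile of genes and 0.23 over the bottom one. The part of gene length in the interaction values of the 9 genes was not tested.

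Levels of different genes were compared per length, as FPKM. Of the 9 genes Nid1 had the highest mean FPKM in 96 h spheroids (42.3 ± 2.30), 96 h monolayers (54.9 ± 1.94) and 48 h spheroids (94.2 ± 1.69), and Hspg2 in 48 h monolayers (67.7 ± 10.1, SD, n = 3 in each), where Nid1 had 60.5 ± 10.3. Perlecan mRNA was lower in rank in spheroids, with 12.2 ± 0.333 FPKM at 96 h and 34.3 ± 2.60 at 48 h. The ratio of Nid1 to Hspg2 FPKM was 3.46 ± 0.235 in 96 h spheroids and 1.53 ± 0.116 in 96 h monolayers, and 2.75 ± 0.222 in 48 h spheroids and 0.892 ± 0.0329 in 48 h monolayers. The 9 genes together summed to 1170 ± 35.1 CPM in 96 h spheroids, 1521 ± 83.8 CPM in 96 h monolayers, 2060 ± 34.0 CPM in 48 h spheroids and 2442 ± 458 CPM in 48 h monolayers.

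Lama5 held the largest share of the alpha chain mRNA in spheroids. Within the summed FPKM of Lama1, Lama3, Lama4 and Lama5, Lama5 held 64.0%, 63.6% and 62.3% in 96 h spheroids, against 28.9%, 27.6% and 29.7% in 96 h monolayers. At 48 h it held 54.8%, 58.8% and 54.6% in spheroids, against 32.5%, 28.8% and 32.8% in monolayers. With Lama2, the alpha-2 chain, counted in the sum as well, Lama5 held 58.2% to 60.6% in 96 h spheroids against 23.7% to 25.4% in 96 h monolayers, and 49.4% to 54.2% in 48 h spheroids against 23.7% to 26.6% in 48 h monolayers. It was then more than all the other alpha chains together in 3 of 3 libraries of 96 h spheroids and in 2 of 3 of 48 h spheroids. Lama3 held 10.3% ± 0.297 in 96 h spheroids against 36.7% ± 1.83 in 96 h monolayers, and 18.9% ± 1.27 in 48 h spheroids against 32.3% ± 1.58 in 48 h monolayers (SD, n = 3). Lama4 held 26.1% ± 1.18 in 96 h spheroids against 33.1% ± 1.48 in 96 h monolayers, and 24.7% ± 1.19 in 48 h spheroids against 34.5% ± 1.00 in 48 h monolayers. Lama1 held 0.286% in 96 h spheroids, 1.42% in 96 h monolayers, 0.409% in 48 h spheroids and 1.86% in 48 h monolayers on average. The shares are given as a description, and no test of them was run.

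**Figure D4:**
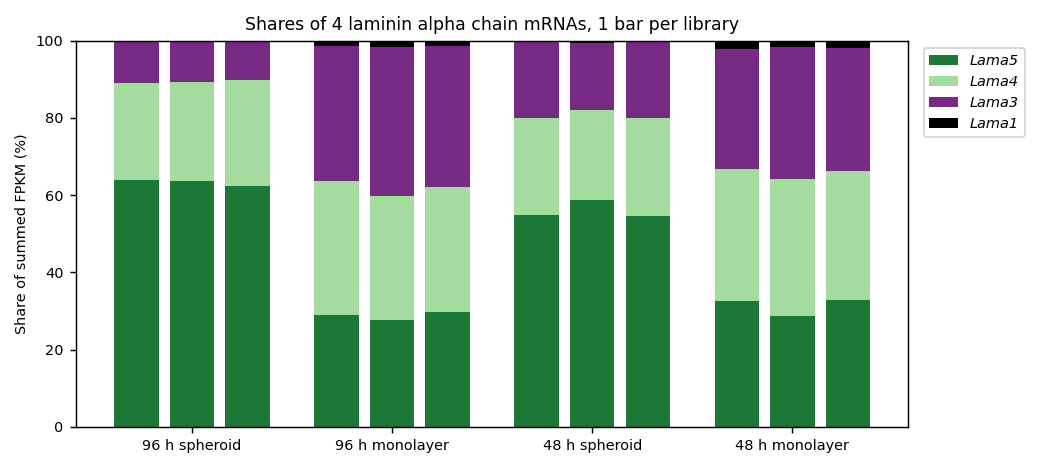
Share of each alpha chain gene (percent of the summed FPKM of Lama1, Lama3, Lama4 and Lama5, y axis) in each of the 12 libraries, 1 bar per library. Lama5 makes up 54.6% to 64.0% in the 6 spheroid libraries and 27.6% to 32.8% in the 6 monolayer libraries.

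Partner chains did not move together in every comparison. The alpha-3 and beta-3 chains join in one laminin, and the mean levels of Lama3 and Lamb3 were 4.83 and 34.3 FPKM in 96 h spheroids against 19.4 and 23.7 FPKM in 96 h monolayers. The 48 h spheroids had 12.7 and 33.3 FPKM of these chains, against 25.0 and 33.3 FPKM in 48 h monolayers. Lama3 was lower than Lamb3 in all 4 groups, and the ratio of Lamb3 to Lama3 was 7.12 ± 0.741 in 96 h spheroids, 1.22 ± 0.0219 in 96 h monolayers, 2.63 ± 0.218 in 48 h spheroids and 1.35 ± 0.174 in 48 h monolayers. In monolayers over time both chains fell, with log2 fold changes of -0.57 for Lama3 and -0.66 for Lamb3, both called.

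Lama5 can join Lamb1 or Lamb2 and Lamc1. Lamb1, the beta-1 chain of most laminins, averaged 24.5 ± 1.05 FPKM in 96 h spheroids against 117 ± 5.77 in 96 h monolayers, and 39.3 ± 0.645 in 48 h spheroids against 94.4 ± 5.83 in 48 h monolayers. It was lower in spheroids, with log2 fold changes of -2.18 at 96 h and -1.37 at 48 h (adjusted p = 1.78e-15 and 1.41e-12), a change opposite in direction to that of Lama5. Lamc1 was lower in spheroids as well, by the smaller values of -0.67 at 96 h and -0.38 at 48 h. The ratio of Lamb2 to Lamb1 FPKM was 0.502 ± 0.0136 in 96 h spheroids and 0.127 ± 0.0160 in 96 h monolayers, and 0.359 ± 0.0202 in 48 h spheroids and 0.205 ± 0.0218 in 48 h monolayers. The ratio of Lama5 to Lamc1 was 1.23 ± 0.0283 in 96 h spheroids and 0.377 ± 0.0342 in 96 h monolayers, and 0.782 ± 0.0856 in 48 h spheroids and 0.414 ± 0.0255 in 48 h monolayers. In 96 h spheroids the 3 chains Lama5, Lamb1 and Lamc1 lay within 24.0 to 29.6 FPKM, and in 96 h monolayers they spread from 15.2 to 117 FPKM.

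**Figure D5:**
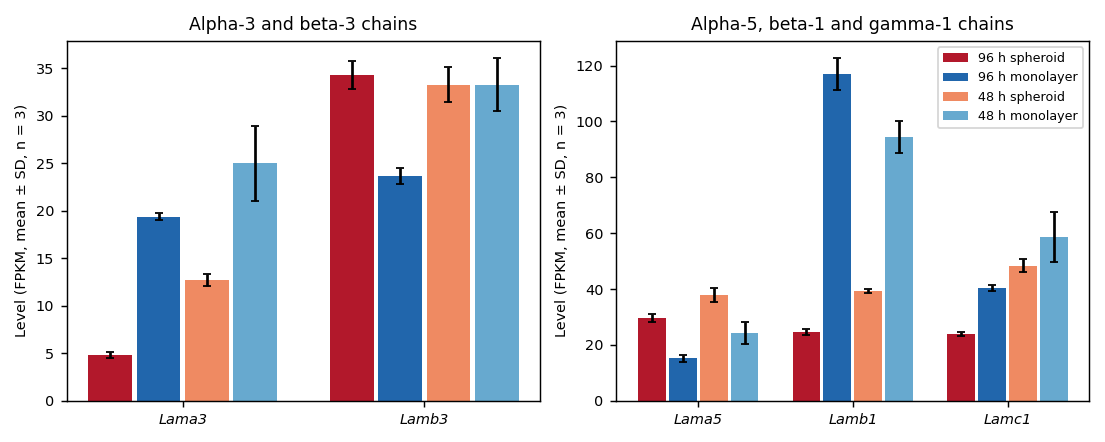
Mean level (FPKM, y axis from 0, bars with SD of 3 libraries) of Lama3 and Lamb3, whose chains join in one laminin (left), and of Lama5, Lamb1 and Lamc1, whose chains join in another (right), in the 4 groups. In 96 h spheroids Lama3 is at 4.83 FPKM beside 34.3 for Lamb3, and Lamb1 is at 24.5 FPKM against 117 in 96 h monolayers.

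The rest of the basement membrane was followed in a list of 32 other components, of which 31 were tested. At 96 h 8 were higher and 17 lower in spheroids, with a median log2 fold change of -0.54, and at 48 h 11 were higher and 14 lower, with a median of -0.38. The share called was 80.6% at each time, against 73.8% of all genes at 96 h and 57.9% at 48 h. Lama2, the alpha-2 chain of muscle and nerve, was lower in spheroids at both times (-1.57 at 96 h and -1.63 at 48 h, adjusted p = 1.72e-09 and 5.49e-10). The collagen IV chains Col4a1 and Col4a2, which form the second basement membrane network, were lower in spheroids at 96 h (-0.98 and -0.81, adjusted p = 3.34e-09 and 4.72e-08). At 48 h their values were -0.01 and 0.05 (adjusted p = 0.95 and 0.583). Col4a6, a chain of a less common collagen IV, was higher in spheroids by 2.18 at 96 h and 1.43 at 48 h (adjusted p = 1.06e-12 and 2.38e-09). The second nidogen gene, Nid2, averaged 1.89 CPM in 96 h spheroids against 1.99 in 96 h monolayers (-0.07, adjusted p = 0.823) and 7.90 in 48 h spheroids against 3.39 in 48 h monolayers (1.21, adjusted p = 0.000144). The heparan sulfate proteoglycan agrin, Agrn, had log2 fold changes of -0.04 at 96 h (adjusted p = 0.753) and -0.68 at 48 h (adjusted p = 2.32e-05).

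In the same list Papln and Frem2 had the largest increases in spheroids at 96 h. Papln, a papilin, averaged 162 CPM in 96 h spheroids against 30.3 CPM in 96 h monolayers (log2 fold change 2.42, adjusted p = 1.48e-11), and the 48 h value was 2.25 (adjusted p = 9.45e-11). Frem2, which acts in the adhesion of skin epithelium to its base, averaged 5.57 CPM in 96 h spheroids against 0.808 CPM in 96 h monolayers (2.80, adjusted p = 2.08e-08). Col7a1, the collagen of anchoring fibrils that attach to the Lama3-containing laminin, averaged 17.3 CPM in 96 h spheroids against 70.2 in 96 h monolayers and 27.7 in 48 h spheroids against 199 in 48 h monolayers (-2.02 and -2.84, adjusted p = 7.04e-12 and 5.29e-14). Fbln2, a fibulin that binds nidogen and perlecan, was lower in spheroids as well, with -2.34 at 96 h and -1.43 at 48 h (adjusted p = 4.58e-15 and 6.05e-12). The largest decreases were those of Col4a3, a collagen IV chain known from kidney and lung, which had few counts in spheroids: 0.156 CPM in 96 h spheroids against 2.53 CPM in 96 h monolayers (adjusted p = 1.11e-06), and 0.0371 CPM in 48 h spheroids against 3.55 CPM in 48 h monolayers (adjusted p = 1.73e-07). With time 8 genes of the list were called higher and 18 lower in spheroids (25.8% and 58.1%, against 19.3% and 20.5% of all genes), with a median of -0.67. In monolayers 3 were higher and 18 lower (9.68% and 58.1%, against 30.1% and 31.3% of all genes), with a median of -0.48.

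All 19 genes of a list of laminin and perlecan receptors were tested. At 96 h 6 were higher and 13 lower in spheroids, with a median of -0.47, and at 48 h 6 were higher and 11 lower, with a median of -0.31. At 96 h 31.6% were higher and 68.4% lower, against 37.3% and 36.5% of all genes, and at 48 h 31.6% were higher and 57.9% lower, against 31.6% and 26.4% of all genes. Itga6, the alpha-6 integrin chain that binds laminins, averaged 346 CPM in 96 h spheroids against 152 CPM in 96 h monolayers and 448 CPM in 48 h spheroids against 122 CPM in 48 h monolayers (log2 fold changes 1.19 and 1.88, adjusted p = 3.51e-10 and 1.1e-12). Bcam, a receptor specific for the alpha-5 laminin chain, averaged 97.2 CPM in 96 h spheroids against 21.6 CPM in 96 h monolayers (2.17, adjusted p = 1.95e-13) and had a log2 fold change of 0.50 at 48 h (adjusted p = 8.99e-05). Dystroglycan (Dag1), singled out after its values were seen, was higher by 0.66 at 96 h and 0.63 at 48 h (adjusted p = 1.76e-06 and 6.58e-06). Itgb1, the beta-1 chain that pairs with most laminin-binding alpha chains, was lower, with -1.28 at 96 h and -1.51 at 48 h (adjusted p = 3.04e-11 and 5.22e-12). The collagen-binding Itga2 was lower too, with -2.46 at 96 h and -1.31 at 48 h (adjusted p = 6.87e-10 and 5.01e-06).

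Another list held 31 genes that process laminin and perlecan or build their sugar chains, of which 29 were tested. At 96 h 4 were higher and 22 lower in spheroids, with a median log2 fold change of -0.69, and at 48 h 4 were higher and 14 lower, with a median of -0.27. The share called was 89.7% at 96 h, against 73.8% of all genes, and 62.1% at 48 h, near the 57.9% of all genes. Mmp9, a gelatinase that also cuts basement membrane proteins, averaged 1.70 CPM in 96 h spheroids against 72.5 CPM in 96 h monolayers (-5.40, adjusted p = 4.77e-15) and 14.1 CPM in 48 h spheroids against 330.1 CPM in 48 h monolayers (-4.54, adjusted p = 1.22e-15). Tll1, a protease of the Bmp1 family that trims laminin chains, was lower, with -3.15 at 96 h and -2.11 at 48 h (adjusted p = 1.54e-09 and 8.48e-08). The heparan sulfate 6-O-sulfatases went opposite ways: Sulf1 was lower, with -3.56 at 96 h and -2.96 at 48 h (adjusted p = 1.54e-13 and 2.04e-12), and Sulf2 was higher, with 0.57 at 96 h and 1.53 at 48 h (adjusted p = 2.87e-07 and 9.33e-13). Xylt1, which starts the sugar chains of proteoglycans, averaged 1.12 CPM in 96 h spheroids against 18.4 CPM in 96 h monolayers (-4.04, adjusted p = 1.77e-11), and 3.63 CPM in 48 h spheroids against 1.99 CPM in 48 h monolayers (0.89, adjusted p = 0.00839).

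Across the 12 libraries, Pearson r of log2 CPM described which genes had the most similar profiles. These libraries share 4 groups, so r mostly follows group means and is given as a description. Among the 9 genes, Lama3 and Hspg2 (r = 0.97), Lamc1 and Hspg2 (0.96), Lama4 and Lamb2 (0.95) and Lama1 and Lama3 (0.94) were the most alike, and Lama5 had its highest r with Lamb3 (0.76) and its lowest with Lama1 (-0.48). Among 9881 genes, the closest to Hspg2 were Sec31a and Adam12 (0.995 each) and Flnc (0.992), and the closest to Lama3 were Gfpt2 (0.993), Itgav (0.992) and Tns1 (0.991). Lama5 was closest to Ints1 (0.981), Srpk1 and Pi4ka (0.975 each), Lamb3 to Ndrg1 (0.978), Hnrpll (0.967) and Srebf2 (0.966), and Nid1 to Furin (0.979), Nomo1 (0.969) and Tacc1 (0.960). Prnd (0.985), Msn and Smurf1 (0.984 each) were closest to Lama1, and Cdcp1 (0.977) and Plekhg3 (0.974) to Lama4. For Lamc1 they were Nod1 (0.982), Plec and C1ra (0.979 each), and for Lamb2 Gpr161 (0.981), AK137356 and Gys1 (0.968 each).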

How the data were processed

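The 12 libraries were prepared from total RNA by the Illumina TruSeq method for mRNA, per the labels. The submitters' processing notes name bcl2fastq 2.15.0, Bowtie 1.0.1, RSEM 1.2.30 and build mm9, without strand setting or options. The authors deposited the expected counts that RSEM gave per gene, rounded to whole numbers, and the log2 of FPKM with 1 added. Symbols came from the authors' annotation table, in which 2093 of 28427 rows carry several. Of the columns with sample values, 0 were unmapped.

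Counts were tested with edgeR 4.0.16 in R 4.3.3. Genes were kept with filterByExpr (minimum count 10, minimum total 15), and libraries were scaled with TMM (factors 0.923 to 1.07). A single quasi-likelihood fit covered all 12 libraries with group as its term, and p-values were 2-sided and adjusted with Benjamini-Hochberg over 13951 genes in each of 5 contrasts, at 0.05. SE values follow from the F statistic of the fold change, and 95% intervals from the SE. FPKM was recovered from the deposited log2 values. Implied lengths are the ratio of library-scaled counts to FPKM. A floor of 3 counts stood for 0.221 to 0.391 CPM, and covers counting error only. The procedure was tested on simulated data.

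All 9 genes were named by rule. From each list the rule took genes past the threshold with the largest changes at 48 h or 96 h, any laminin, nidogen, agrin or collagen IV chain, and for each of the 9 genes the 3 most similar genes above a mean of 3 log2 CPM. Of the genes this rule names, 2 are not reported here. The 9 genes and the lists were chosen with earlier results of these data known. Alternatives were other scalings and filters, DESeq2 1.42.0, limma 3.58.1 on log2 FPKM, fits of only the groups compared, a replicate block, and leaving out each library.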

Additional observations from a re-analysis of the deposited data

Results flagged for a closer look

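For 7 of the 9 genes the spheroid effect at 96 h differed from that at 48 h by the interaction term of the edgeR fit. The value was -0.75 for Lama3, 0.35 for Lama4, 0.37 for Lamb2, 0.71 for Lamb3, -0.29 for Lamc1, -0.83 for Nid1 and -0.57 for Hspg2 on the log2 scale. Over all genes 53.3% had such a difference. Only the calls of Lama3, Lamb3 and Nid1 were made under all 21 alternatives. The call of Lamc1 was lost under 13 of them, that of Lama4 under 11, that of Lamb2 under 6 and that of Hspg2 under 5. Nid1 was the gene whose direction turned: it averaged 261 ± 12.7 CPM in 96 h spheroids and 319 ± 15.9 CPM in 96 h monolayers, and 573 ± 11.9 CPM in 48 h spheroids and 396 ± 61.2 CPM in 48 h monolayers (SD, n = 3). Lamb3 at 96 h averaged 141 ± 7.37 CPM in spheroids and 92.2 ± 1.69 CPM in monolayers, and at 48 h 135 ± 7.10 CPM in spheroids and 146 ± 10.1 CPM in monolayers.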

How the results depend on the processing

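Of 45 gene changes (9 genes in 5 comparisons), 33 kept direction and call under every alternative run and 12 did not. Calls among the 9 genes numbered 8 in the 48 h format comparison under every alternative, 8 or 9 in the 96 h one, 8 or 9 in monolayers over time and 6 to 8 in spheroids over time, and each count of called genes over the whole table stayed within 1.5 times that reported. In the interaction 7 were called, 5 under DESeq2, total-count scaling, upper-quartile scaling and either FPKM fit, and 4 to 7 when single libraries were left out, with 4 without 48 h spheroid replicate 2 or 3, 96 h monolayer replicate 2 or 3, or 96 h spheroid replicate 3. The value of Lamb3 at 48 h turned sign, to 0.0018 under total-count scaling, 0.0018 on log2(FPKM + 1) and 0.0019 on log2(FPKM + 0.1), none called. The interaction of Lama1, never called, was -0.10 under total-count scaling and ran from -0.13 to 0.26 over libraries left out. With 1 median length per gene in place of each library's own, the share of Lama3 in 96 h spheroids was 10.9% and that of Lama5 in 96 h monolayers 30.1%. With Lama2 in the alpha chain sum, an alternative chosen after seeing the data, the share of Lama5 was 59.7% in 96 h spheroids, 24.9% in 96 h monolayers, 51.4% in 48 h spheroids and 25.6% in 48 h monolayers, each lower because the sum holds another chain. The fall of Nid1 in monolayers was not called under total-count scaling or on FPKM (-0.13, adjusted p = 0.246 and 0.249), nor that of Lama1 in spheroids on log2(FPKM + 1) (-0.17, adjusted p = 0.214). The cause was not tested.

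Replicate numbers did not pair the libraries: over 18 pairs with the same number, deviations from group means correlated with r from -0.11 to 0.0881, and 0 were over 0.1. With the replicate block the calls numbered 8, 8, 9, 7 and 7 among the 9 genes (48 h format, 96 h format, monolayers over time, spheroids over time, interaction) and 8110, 10287, 8537, 5501 and 7417 over all genes; these numbers among the 9 genes equal those without the block.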
